A study of Drosophila melanogaster with 3 samples.

Results

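The Rab GTPases of *Drosophila melanogaster* were followed here in polyadenylated RNA of wild-type adult heads. Members were the table rows whose gene symbol is Rab followed by a digit, or by X and a digit. The regulators Rab3-GEF, Rab3-GAP and Rab3GAP1 were left out, since they act on Rabs and are not Rabs themselves. This gave 32 genes of the 17558 in the table. Rab1 (FBgn0285937) matched no row by its ID and was not analysed here. Of the rows, 306 carried an ID with no match in the annotation used here. Whether any of these rows holds Rab1 under an older ID was not settled. Totals, ranks and shares of the family given below therefore leave Rab1 out.

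All 3 libraries came from 1 group of untreated wild-type adults raised at 25°C, whose whole heads were lysed after decapitation on CO2. No mutant or treated library was analysed. Genes were therefore set against each other inside each library, and libraries against each other. The series text names the CantonS strain, whereas the methods of the study define wild type as w1118. Age and sex are not in the labels, and nothing in them says whether the replicates were separate collections of flies. The spread between libraries may therefore be technical.

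Rab proteins are small GTPases that mark the membranes of a cell. Bound to GTP, a Rab recruits effectors that move, tether or fuse vesicles, and each compartment carries its own set. GEFs load Rabs with GTP, GAPs trigger hydrolysis, and the GDP dissociation inhibitor returns the inactive protein to the cytosol. In a fly head, this traffic serves synapses, the rhodopsin-bearing membranes of photoreceptors and the pigment granules of the eye, beside the secretion that every cell performs.

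The libraries held 8332583, 7349123 and 6299265 counts in replicates 1, 2 and 3. Defining genes of head tissue were abundant, with summed levels of ninaE, Arr2 and trp (photoreceptors) from 33466 to 36039 CPM (counts scaled to a library total of 1000000). Neuronal genes (elav, nSyb and brp) summed to between 1920 and 2141 CPM, and glial genes (repo, moody and Eaat1) to between 661 and 701. Muscle genes (Mhc, Act88F and up) spanned 3870 to 4782 CPM, fat body genes (Lsp2, Yp1 and apolpp) 12049 to 17187 and haemocyte genes (Hml, NimC1 and He) 267 to 389. The male germ-line genes Mst84Da, dj and Mst87F were at or near 0, with 0, 5 and 0 counts for Mst84Da, 0, 3 and 0 for dj and 0, 2 and 1 for Mst87F.

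Of the 32 Rab genes, 26 reached 10 or more counts in total and were taken as detected (81.2%), as did 9479 of 13684 protein-coding genes (69.3%). The division was wide, because the lowest detected member had 109 counts and the highest undetected member had 3. Together the members took 0.259% ± 0.0028 of all counts (SD, n = 3), or 2588, 2614 and 2558 CPM in replicates 1, 2 and 3. Because a long RNA gives more fragments, genes were compared in CPM per kilobase of annotated exon. On this scale the median detected Rab gene stood at 28.2 and the median detected protein-coding gene at 12.8, and 19 of the 26 Rabs lay above the latter. Per-kilobase levels of the detected Rabs spanned 53.6-fold, from Rab7 to Rab23. Since these are whole heads, more cells that contain an RNA and more RNA per cell cannot be told apart.

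**Figure D1:**
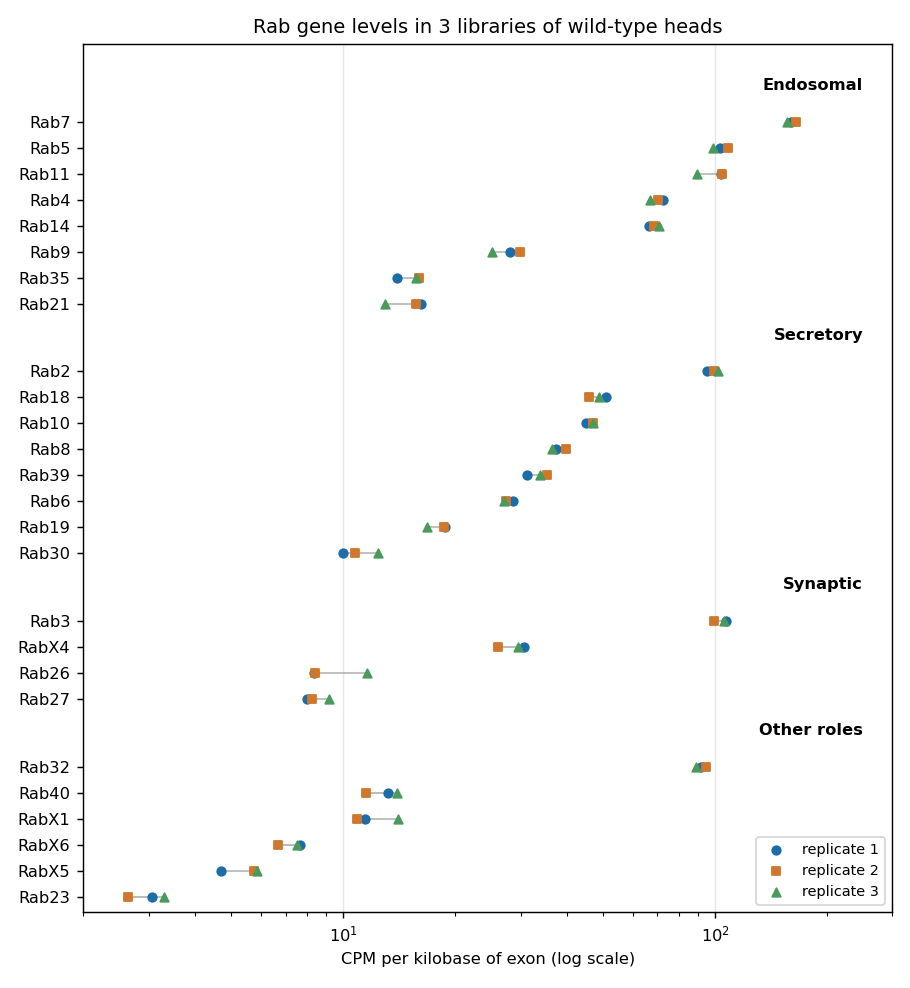
CPM per kilobase of exon (log scale) of the 26 detected Rab genes in each of the 3 libraries, grouped by role, with a grey line joining the libraries of a gene. Rab7 is highest at 157 to 165, Rab23 lowest at 2.64 to 3.29, and the libraries of a gene lie close together; the 6 members under 10 summed counts are not drawn.

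Among the members analysed, the endosomal Rabs were the most abundant group. Their 8 genes held 48.0% ± 1.3 of the summed per-kilobase level of these members (SD, n = 3). Rab7 (FBgn0015795, chromosome 3R, 23993008 to 23995452, plus strand), which directs late endosomes to lysosomes, led the family. It had 2272, 2065 and 1676 counts in replicates 1, 2 and 3, which is 160, 165 and 157 CPM per kilobase. Its lowest library lay above every library of every other Rab, and its mean exceeded 95.4% of detected protein-coding genes. Rab5 (FBgn0014010, chromosome 2L, 2359142 to 2365273, minus strand), which controls fusion of early endosomes, had 2709, 2500 and 1954 counts and 103, 108 and 98.6 CPM per kilobase. Rab11 (FBgn0015790, chromosome 3R, 21111408 to 21116146, plus strand) serves recycling endosomes and, in fly photoreceptors, the delivery of rhodopsin. It had 1565, 1392 and 1025 counts, or 103, 104 and 89.7 CPM per kilobase, so that replicate 3 was the low one. Rab5 and Rab11 overlapped in their ranges.

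The other endosomal members were lower. Rab4, of rapid recycling, had 797, 679 and 555 counts and a mean of 69.9 CPM per kilobase ± 2.9 (SD, n = 3), beside 68.5 ± 2.1 for the endosomal and phagosomal Rab14. With the union of exons as length these 2 genes could not be ordered, as Rab4 was higher in 2 of 3 libraries. Divided by the longest transcript instead, Rab14 (86.7 CPM per kilobase) stood above Rab4 (69.9). Rab9, which acts between late endosomes and the Golgi, had 375, 353 and 254 counts and 27.7 ± 2.4 CPM per kilobase. At the lower end of the group stood Rab35, a Rab of recycling and of actin-rich membranes, at 15.2 ± 1.1, and the early endosomal Rab21 at 14.9 ± 1.7. Rab21 had 167, 143 and 101 counts, and its replicate 3 lay below the other libraries.

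The secretory Rabs were analysed without Rab1, which had been placed in this group. The 8 genes analysed held 27.6% ± 0.53 of the summed per-kilobase level (SD, n = 3). Rab2 (FBgn0014009, chromosome 2R, 6696739 to 6699469, plus strand), of the Golgi and of the maturation of dense-core vesicles, led them with 1358, 1250 and 1098 counts. This gave 95.2, 99.4 and 102 CPM per kilobase, within the range spanned by Rab5 and Rab11. Rab18, of the endoplasmic reticulum and lipid droplets, followed at 48.5 ± 2.5 (SD, n = 3), and Rab10 at 46.4 ± 1.1. Rab10 and Rab8 both act in post-Golgi transport to the plasma membrane. Rab10 had 877, 808 and 691 counts, and Rab8 had 721, 676 and 532 counts and 37.9 ± 1.7 CPM per kilobase. Rab39, a lysosomal Rab that was listed with the secretory ones and is part of their share, stood at 33.5 ± 2.1. The other Golgi Rabs were the lowest of the group. Rab6 had 452, 382 and 324 counts and 27.7 ± 0.79 CPM per kilobase, Rab19 had 18.1 ± 1.1, and Rab30, with 171, 163 and 161 counts, had 11.1 ± 1.2.

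Of the Rabs linked to synapses, 1 gene held most of the signal. Rab3 (FBgn0005586, chromosome 2R, 10721335 to 10729203, minus strand), the Rab of synaptic vesicles, had 3348, 2750 and 2502 counts, the highest total of the family. Per kilobase it reached 107, 99.6 and 106, and the mean of 104 ± 3.9 (SD, n = 3) placed it second. RabX4, placed in the same group, had 362, 272 and 263 counts and 28.8 ± 2.4 CPM per kilobase. Of the 1416 exon bases of RabX4, 131 (9.25%) overlapped exons of Kaz on the same strand, and how reads in such stretches were assigned is not given in the sources used here. Rab26, which associates with synaptic vesicles in mammals, had 303, 268 and 317 counts and 9.43 ± 1.8 CPM per kilobase. Rab27, a Rab of regulated secretion, had 104, 95 and 90 counts and 8.46 ± 0.60. Both lay below the median protein-coding gene.

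The members with other or less known roles ranged from near the top of the family to its lower end. Rab32 (FBgn0002567, also called lightoid, chromosome 2R, 9177864 to 9186342, minus strand) is needed for pigment granules of the fly eye. It had 3127, 2841 and 2279 counts, second to Rab3 in the table, and 92.0, 94.7 and 88.7 CPM per kilobase. Its annotated exons sum to 4081 bases over 7 transcripts, of which the longest has 2771. Divided by the longest transcript instead, Rab32 reached 135 CPM per kilobase, above Rab5 (131) and Rab3 (104) and below Rab7 (180). The place of Rab32 in the order thus depended on the length used. Rab40, which carries a SOCS box, stood at 12.9 ± 1.3, RabX1 at 12.1 ± 1.7, RabX6 at 7.28 ± 0.54 and RabX5 at 5.43 ± 0.65 (SD, n = 3). Rab23, known from planar cell polarity of the fly wing, was the lowest detected member, with 58, 44 and 47 counts and 3.0 ± 0.33 CPM per kilobase. For RabX6, 466 of 1286 exon bases (36.2%) lay opposite exons of Vti1a, which had 151, 135 and 116 counts. The kit keeps strand, but the strand setting of the counting is not given, so part of the RabX6 counts could belong to Vti1a.

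The detected Rabs formed 25 neighbouring pairs in the per-kilobase order. In 12 of them the ranges of the 3 libraries did not overlap, and in 13 they did. Of those without overlap, Rab2/Rab32, Rab39/RabX4, Rab19/Rab35, Rab27/RabX6 and RabX6/RabX5 had a mean log2 ratio within 2 SD of 0. Rab3, Rab5, Rab11 and Rab2 formed a chain in which no neighbours were separated, with mean log2 ratios from 0.003 to 0.06. Clear steps lay between Rab7 and Rab3 (log2 ratio 0.63 ± 0.09), Rab32 and Rab4 (0.39 ± 0.05), Rab14 and Rab18 (0.50 ± 0.10) and Rab9 and Rab19 (0.61 ± 0.06; SD, n = 3). Smaller steps past 2 SD lay between Rab10 and Rab8 (0.29 ± 0.06) and between Rab8 and Rab39 (0.18 ± 0.08). The ends of the list were also separated, with RabX5 above Rab23 by 0.85 ± 0.26. Between Rab35 and Rab30 each neighbour overlapped the next. This order, with its chain and steps, holds for the union of exons as length. Divided by the longest transcript instead, Rab32 (135 CPM per kilobase) and Rab5 (131) stood between Rab7 (180) and Rab3 (104).

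The remaining 6 members had at most 3 counts each. RabX2, Rab9Db, Rab9Fa and Rab9Fb were at 0 in every library. Rab9D had 1, 0 and 1 counts and Rab9E had 1, 2 and 0. A count of 0 allows up to 3 counts, or from 0.36 CPM in replicate 1 to 0.476 CPM in replicate 3 for each gene. Levels under this floor are therefore not excluded by a 0 in that library. Against that floor in each library, Rab9 was at least 42 to 46 times higher per kilobase than the 4 genes at 0. Against Rab9E the ratio was 181 (exact 95% interval 61.9 to 881) and against Rab9D 275 (75.8 to 2270), both for counting error only.

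These 6 genes share a place and a structure that the selection by symbol did not use. All lie on chromosome X between 10417429 (start of RabX2, plus strand) and 10952486 (end of Rab9Fb, minus strand) in dm6 coordinates, a stretch of 535 kb with 0 other members inside. Each has 1 transcript with 1 exon and a coding length of 585 to 642 bases. Among the other 26 members, 25 have an intron and all of these were detected, and Rab6 is the single detected member without one. Several of the 6 lie inside introns of genes on the opposite strand, without overlap of exons. Rab9Fa and Rab9Fb lie in Myo10A (616, 521 and 552 counts), Rab9E in X11Lbeta (1276, 1077 and 1094) and RabX2 in CG32683 (271, 225 and 223). The host genes were thus counted in every library while the nested Rabs were at or near 0. The 5 Rab9-like genes may share reads with one another, and how reads with several matches were counted is not given, so their single values are uncertain.

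Members with related roles were compared within each library, in 9 pairs. Rab3 exceeded Rab27 12.3-fold per kilobase, with a log2 ratio of 3.62 ± 0.11 (SD, n = 3). It exceeded Rab26 11.2-fold, with log2 ratios of 3.68, 3.57 and 3.19 in replicates 1, 2 and 3. RabX4 was below Rab3 by a log2 ratio of -1.86 ± 0.07. Of the early endosomal pair, Rab5 exceeded Rab21 by 2.80 ± 0.13, and of the recycling pair, Rab11 exceeded Rab4 by 0.50 ± 0.08. Along the endosomal route, Rab7 lay above both Rab5 (log2 ratio of Rab5 to Rab7 -0.64 ± 0.03) and Rab9 (Rab7 to Rab9 2.54 ± 0.09). The step from Rab5 to Rab7 had the smallest SD of the 9, with library values of -0.63, -0.61 and -0.67. Without division by length it turned to 0.25, because Rab5 has 3146 annotated exon bases and Rab7 has 1700. In the secretory group Rab8 was below Rab10 by -0.29 ± 0.06 and Rab6 above Rab30 by 1.33 ± 0.20. Each pair had 1 direction in 3 of 3 libraries and a mean beyond 2 SD of 0. With 3 libraries an exact permutation test that flips signs cannot go below p = 0.25 (two-sided). Every pair gave this value, which the Benjamini-Hochberg adjustment over 9 pairs left at 0.25.

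**Figure D2:**
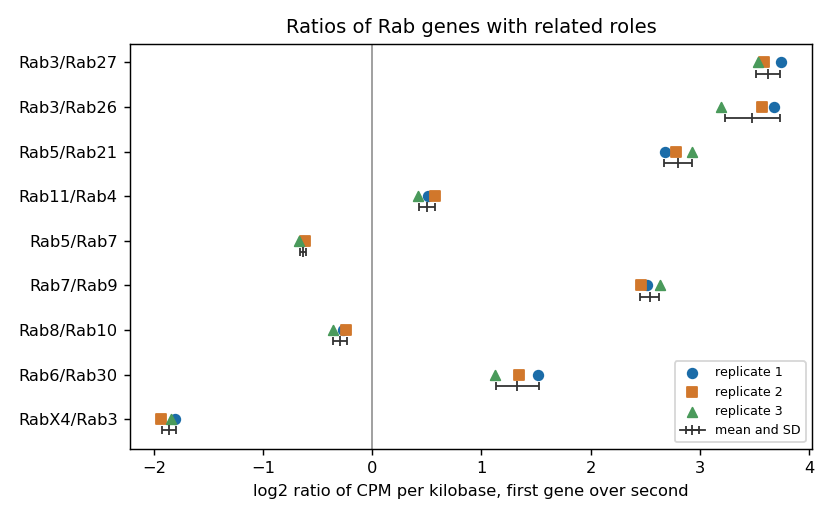
log2 ratio of CPM per kilobase, first gene over second, for 9 pairs of Rab genes with related roles, with 1 marker per library and the mean with its SD beneath. All libraries of a pair lie on the same side of 0, from about -1.86 for RabX4 over Rab3 to 3.62 for Rab3 over Rab27.

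Excess spread of a Rab gene between replicates, relative to other genes at its abundance, was tested with the quasi-likelihood fit of edgeR over 9049 genes, with Benjamini-Hochberg adjustment. At an adjusted p under 0.05 the fit called 0 of the 26 Rab genes, against 0.320% of all genes tested. DESeq2 flagged 113 of 12909 genes (0.875%) as dispersion outliers and 0 of the 28 Rab genes with a count. At such background shares a count of 0 among this few genes sets the Rabs apart in neither fit. At an unadjusted p under 0.05 it gave 1 Rab gene, Rab26, against 4.64% of all genes. Between the highest and the lowest library, the median Rab gene differed 1.14-fold after TMM scaling, and the median tested gene 1.17-fold. The difference was over 1.5-fold for 0 of the 26 Rabs and for 9.58% of all tested genes, or 6.19% of those within the abundance range of the Rabs. Among the 13 Rabs with at least 1000 summed counts it reached at most 1.16-fold, and it was smallest for Rab7 (1.03-fold).

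**Figure D3:**
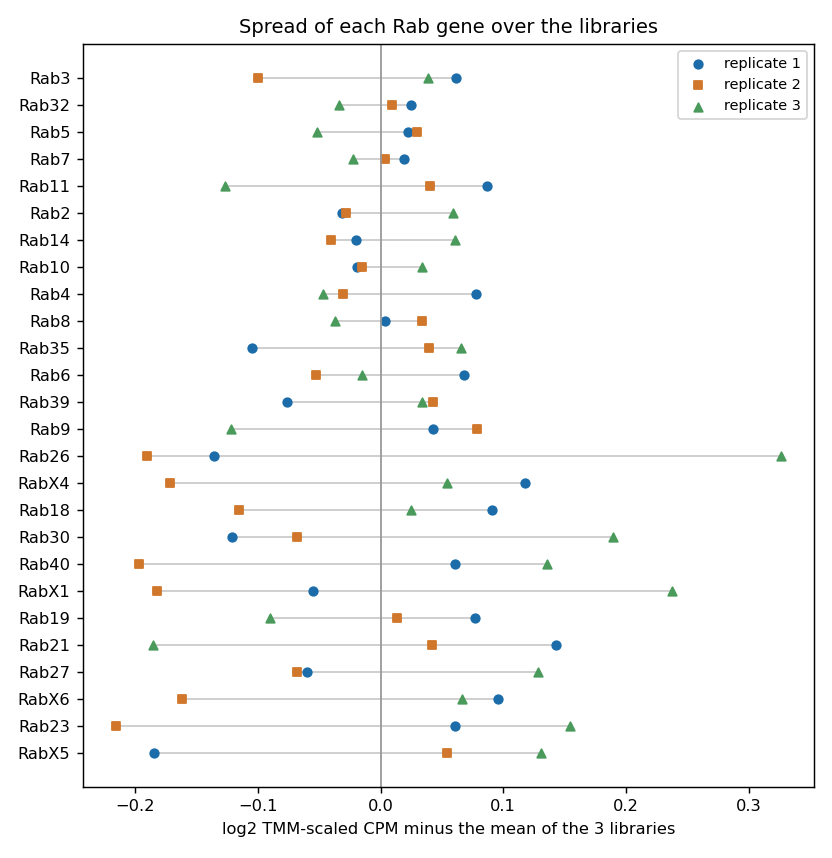
Log2 of TMM-scaled CPM in each library minus the mean of the 3 libraries, for the 26 detected Rab genes ordered by abundance. Rab26 in replicate 3 lies farthest from 0, and Rab7 has the narrowest range (1.03-fold).

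Rab26 (FBgn0086913, chromosome 3L, 21318774 to 21335027, plus strand) was the most variable member. Its TMM-scaled levels were 37.0, 35.6 and 50.9 CPM in replicates 1, 2 and 3, a range of 1.43-fold. Replicate 3 stood above the other libraries, and its Wilson 95% interval before TMM scaling (45.1 to 56.2 CPM) did not overlap theirs (32.5 to 40.7 and 32.4 to 41.1). The edgeR p was 0.0345 and the adjusted p 0.992, so the difference did not pass over all genes. Without replicate 3 the unadjusted edgeR p was 0.806. The adjusted p ran from 0.204 without replicate 2 to 0.998 without replicate 3 over 5 other settings. RabX1 came next, with 19.2, 17.5 and 23.5 CPM (157, 132 and 146 counts) and an edgeR p of 0.185 (adjusted p 0.992), also highest in replicate 3. Over the 26 Rabs, replicates 1, 2 and 3 were highest for 11, 4 and 11 genes, so no library was high throughout. Over all tested genes the same replicates were highest for 30.6%, 35.8% and 33.6%. The summed markers of neurons (2026, 1920 and 2141 CPM) and of haemocytes (267, 319 and 389 CPM) were also highest in replicate 3, whereas the glial sums (700, 661 and 701 CPM) were level in replicates 1 and 3 and the other sums were not highest there. Of the neuronal markers, elav (209, 193 and 232 CPM) and brp (575, 575 and 678 CPM) were highest in replicate 3. The most abundant one, nSyb, was highest in replicate 1 (1242, 1151 and 1231 CPM). Single markers of other tissues moved more in replicate 3 than the sums show. Act88F, an actin of flight muscle, had 3.12, 3.13 and 18.4 CPM, and Lsp2, a larval serum protein of the fat body, had 150, 130 and 31.0 CPM. The part of these shifts in the Rab26 value was not tested.

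The genes that control Rabs were measured beside them, as a list of 20 regulators, all detected. Their median was 16.7 CPM per kilobase, and 0 passed the variability test of edgeR at either p. Over all genes tested, 0.320% passed at the adjusted p and 4.64% at the unadjusted p. Gdi, the GDP dissociation inhibitor that serves the whole family, stood far above the rest at 116 ± 4.3 CPM per kilobase (SD, n = 3), with 2354, 2225 and 1808 counts. With the union of exons as length, only Rab7 was higher among the Rabs. The next were wkd, a GAP, at 36.1 ± 1.4 and Rab3-GEF, which loads Rab3 with GTP, at 34.3 ± 4.3. The lowest was sky, a synaptic GAP, at 3.49 ± 0.27, with 174, 163 and 153 counts. Among 19 effectors in the table, all detected, the median was 12.1 CPM per kilobase and again 0 passed at either p. At such shares over all genes, a count of 0 sets neither list apart. The leading ones were nuf and Rip11, both partners of Rab11, at 36.5 ± 0.70 and 30.4 ± 0.92, and Rim, a Rab3 partner of the active zone, at 28.1 ± 3.5. Vps39, of the tethering complex on late endosomes, was lowest at 6.52 ± 0.23. On the per-kilobase scale 11 Rabs were higher than nuf, the highest effector.

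Rim and Rab3-GEF, like Rab26, were highest in replicate 3. Rim had 379, 365 and 457 CPM and Rab3-GEF had 281, 273 and 342 CPM in replicates 1, 2 and 3. Rab3 itself did not share this order, with 402, 374 and 397 CPM. None of these differences passed in the edgeR fit (p 0.119 for Rim, 0.101 for Rab3-GEF and 0.577 for Rab3, adjusted p 0.992 for each).

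Set beside 29 other small GTPases in the table, the Rabs had a similar middle and a wider span. The median of the others was 32.3 CPM per kilobase and that of the detected Rabs 28.2, and 29 of 29 against 26 of 32 were detected. Abundant ones were Arf1, of Golgi coat assembly, at 107 ± 4.8, and Sar1, of vesicles that leave the endoplasmic reticulum, at 99.9 ± 5.4 (SD, n = 3). The lowest was Arl6, a GTPase of cilia, at 5.08 ± 0.43. With the union of exons as length, only Rab7 exceeded Arf1 among the Rabs, and only RabX2, Rab23 and the 5 Rab9-like genes lay below Arl6. The edgeR fit called 0 of the 29 others as variable between libraries, against 0.320% of all genes tested. Rgk1, named here after its values were seen, was the single one under 0.05 before adjustment, against 4.64% of all genes. Its edgeR quasi-likelihood p was 0.0298 and its Benjamini-Hochberg adjusted p 0.983. At these shares neither count sets the list apart. The other GTPases were a chosen list, whereas the Rabs were taken by a rule on the symbol, so the sets were not selected alike. The difference between the families was described and not tested.

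**Figure D4:**
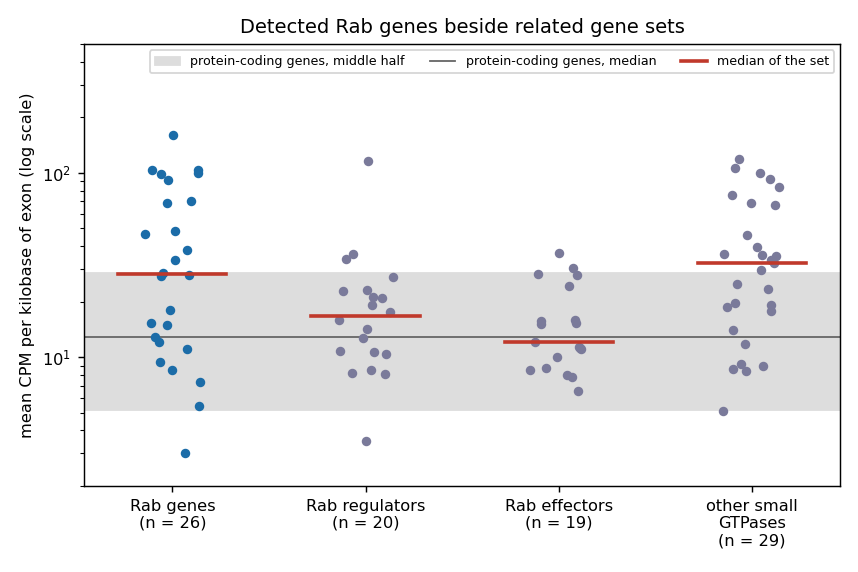
Mean CPM per kilobase of exon (log scale) of detected Rab genes, Rab regulators, Rab effectors and other small GTPases, 1 point per gene, with red bars at the medians (28.2, 16.7, 12.1 and 32.3). The grey band runs between the quartiles of detected protein-coding genes (5.14 to 28.5) around their median of 12.8; points are spread sideways only to be visible.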

How the data were processed

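Head RNA was extracted with QIAzol, and polyadenylated RNA was captured from 150 ng per library (TruSeq Stranded mRNA). The authors deposited raw read counts per FlyBase gene in 1 table. Their processing notes name STAR 2.7.4a, featureCounts (Subread) and dm6, and their methods name snakePipes and Ensembl annotation. Neither the strand option of the counting nor the treatment of multi-mapping reads is given in the sources used here. The table held 0 rows without a gene ID and 0 unused columns of per-sample values.

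Symbols, positions and exon lengths came from Ensembl release 115 (BDGP6, dm6 coordinates), matched by FlyBase ID for 98.3% of 17558 genes. CPM used the total of all genes, and the length was the union of annotated exons. Wilson and exact 95% intervals, and the floor of 3 counts, cover counting error only. Variability was fitted with edgeR 4.0.16 (R 4.3.3, TMM, filterByExpr, intercept only) on the counts. Each quasi-dispersion was set against the fitted prior by an upper-tail F test, with Benjamini-Hochberg adjustment over 9049 genes. The fit was also run on counts simulated from its own fitted means and dispersions. That outcome is not given here, so the power of the fit with 3 libraries stays unstated. DESeq2 1.42.0 was an alternative. Pairs were tested with sign-flip permutations. A pair of Rab1 and Rab2 was planned and could not be formed.

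Members, lists and pairs were chosen with earlier results of these data known. Counts per library are given for the 5 members highest per kilobase, the role pairs, members under 30 summed counts and the 2 with the smallest p. Of each list, the 3 highest genes and the lowest are named, except for 1 gene that is not reported here. Vps16A and Rap2l, of the lists, matched no symbol. Rab32, Rab23, RabX6 and the library order of Rim and Rab3-GEF were described after their values were seen.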

Additional observations from a re-analysis of the deposited data

How the results depend on the processing

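For 14 results, 76 alternative values were computed, of which 59 stayed within the spread between libraries (or, for counts of genes, within 1.5 times), 16 moved and 1 changed sign. No paired analysis was possible because the 3 libraries analysed form a single group. Without division by length, the log2 ratio of Rab5 to Rab7 changed sign to 0.25, and others became 4.89 for Rab3 to Rab27, 4.14 for Rab5 to Rab21, 0.96 for Rab11 to Rab4 and -3.27 for RabX4 to Rab3. With the longest transcript as length, the ratio was 3.11 for Rab3 to Rab26, 2.93 for Rab5 to Rab21, -0.47 for Rab5 to Rab7 and 2.71 for Rab7 to Rab9. Both sets follow from the annotated lengths, since isoform use was not measured. Leaving mitochondrial genes out of the total raised the summed level of the Rabs to 2749 CPM and their median to 30.04 CPM per kilobase by construction, and leaving out 1 library gave medians from 27.7 to 28.98. The number of genes called variable was 118 of 12909 tested with no filter and 113 of 12909 by DESeq2 dispersion outliers. Without replicates 1, 2 and 3 in turn it was 55 of 9062, 57 of 9095 and 44 of 9182. The cause of the differences between settings was not tested. In each of these settings 0 Rab genes were called, of 26 to 28 tested. At such shares a count of 0 among this few genes does not set the Rabs apart. The number of detected Rabs was 28 with at least 1 count and 26 in every other setting. The thinnest detected member, RabX5, rested on 34 to 39 counts per library.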

Other observations

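Rab7, the most abundant Rab per kilobase, is a near neighbour of the lncRNA gene on which the study centres. The *mimi* gene ends at 23985065 on chromosome 3R and Rab7 begins 7942 bp further on, on the same plus strand, with CG13603, CG5902 and Epp between them. The level of *mimi* was not used here. The libraries are all wild type, so whether levels at this locus depend on each other was not tested.

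The chromosome X carries 13 of the 32 members, more than any other arm, with 6 of them under 10 summed counts. The 7 detected X-linked Rabs (Rab18, Rab10, Rab39, Rab35, Rab21, Rab40 and Rab27) ranged from 8.46 to 48.5 CPM per kilobase, and the 6 members highest per kilobase all lie on autosomes. Chromosome 2R held 5 members, of which Rab3, Rab2, Rab32 and Rab4 stood above 69 CPM per kilobase. This placement is a description of a small family and was not tested.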
